A study of Mus musculus with 6 samples.

Results

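The insulin-like growth factor (IGF) axis was examined through 10 genes, of the 23073 genes with a probe on both array designs used in the study. They are the ligand Igf1, its receptor Igf1r, the 6 binding proteins Igfbp2 to Igfbp7, and the RNA-binding proteins Igf2bp1 and Igf2bp3. The genes were taken as a listed set by their Entrez identifiers: 8 have a row in the authors' deposited gene table, and Igf2bp1 and Igf2bp3 were found on the arrays through their RefSeq accessions. The study compared cells sorted from transgenic mice in which green fluorescent protein (GFP) is driven by the promoter of Acta2, the smooth muscle actin (SMA) gene. Wound SMA+++ cells, labelled myofibroblast, were high in GFP and came from wounds at 7 days post injury. Skin SMA+ cells, labelled fibroblast-like cells, were low in GFP and came from the dermis. Both populations were negative for CD45, a surface marker of white blood cells, and for CD31, a marker of endothelial cells. No strain, age or sex was given in the sources used here. RNA of each population was hybridised to 3 one-colour Agilent arrays. Wound replicates 1 and 2 and skin replicates 1 and 2 shared a slide of design 026655, and wound replicate 3 and skin replicate 3 shared a slide of design 028005, where the number 3 serves only as a name. Because the wound cells were both injured tissue and selected for a brighter reporter, injury and reporter level cannot be told apart. The labels do not say whether arrays of a group came from separate mice, so p-values rest on a spread between arrays that could be technical alone.

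IGF1 is a secreted peptide that acts through the receptor tyrosine kinase IGF1R to promote growth, survival and matrix production, and fibroblasts and macrophages are known sources of it in healing skin. Most IGF1 outside cells is held by IGF-binding proteins, which carry it, lengthen its life, or keep it from the receptor until proteases cut them. The IGF2 mRNA-binding proteins share a similar name but are a separate family of cytoplasmic proteins that bind messenger RNAs and are typical of fetal tissue.

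Promoter sequences are shown for the ligand and for the 4 binding-protein genes whose RNA differed between wound and skin cells, since these genes moved in opposite directions within a single family. They are RefSeq sequences on build GRCm38.p6, which 9 of the 10 genes had (not Igf2bp1), and each runs 5′ to 3′ on the gene's strand for 300 bases, 250 before the annotated start and 50 from it on. The arrays were annotated on mm9, so the coordinates belong to the sequences only. Both strands were searched. The TATA box was written as TATAAA, the GC box of Sp1 family factors as GGGCGG, and the site of the AP-1 factors Fos and Jun as TGANTCA. The site of FoxO factors was written as GTAAACA, that of the TEAD factors as GGAATG, and the E-box of helix-loop-helix factors as CACGTG. The CArG box of serum response factor was searched as well. Capitals mark every match on either strand.
Igfbp2, chr1:72824230-72824529, plus strand: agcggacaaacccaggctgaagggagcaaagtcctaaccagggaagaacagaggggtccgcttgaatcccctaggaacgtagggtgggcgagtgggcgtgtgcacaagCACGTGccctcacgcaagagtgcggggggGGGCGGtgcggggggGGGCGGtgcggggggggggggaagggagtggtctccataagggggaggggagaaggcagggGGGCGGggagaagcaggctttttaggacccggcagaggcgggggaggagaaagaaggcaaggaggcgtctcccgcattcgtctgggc
Igfbp5, chr1:72874816-72875115, minus strand: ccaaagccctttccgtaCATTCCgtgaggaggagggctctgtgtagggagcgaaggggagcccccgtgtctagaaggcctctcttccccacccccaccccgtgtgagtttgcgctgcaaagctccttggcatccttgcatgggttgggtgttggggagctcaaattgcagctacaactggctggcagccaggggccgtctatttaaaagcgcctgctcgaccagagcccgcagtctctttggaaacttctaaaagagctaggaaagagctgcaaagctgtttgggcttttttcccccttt
Igfbp3, chr11:7213874-7214173, minus strand: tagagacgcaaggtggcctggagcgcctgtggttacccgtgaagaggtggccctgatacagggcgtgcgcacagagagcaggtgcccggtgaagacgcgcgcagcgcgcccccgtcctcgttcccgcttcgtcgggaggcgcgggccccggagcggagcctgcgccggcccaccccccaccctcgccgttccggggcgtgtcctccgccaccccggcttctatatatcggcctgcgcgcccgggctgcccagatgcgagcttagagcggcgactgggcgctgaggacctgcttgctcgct
Igfbp4, chr11:99040994-99041293, plus strand: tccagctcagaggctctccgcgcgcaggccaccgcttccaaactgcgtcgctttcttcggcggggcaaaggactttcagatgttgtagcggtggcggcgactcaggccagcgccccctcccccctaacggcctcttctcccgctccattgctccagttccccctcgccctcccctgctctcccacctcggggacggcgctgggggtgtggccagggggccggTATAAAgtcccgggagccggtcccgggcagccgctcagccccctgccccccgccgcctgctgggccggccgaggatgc
Igf1, chr10:87860861-87861160, plus strand: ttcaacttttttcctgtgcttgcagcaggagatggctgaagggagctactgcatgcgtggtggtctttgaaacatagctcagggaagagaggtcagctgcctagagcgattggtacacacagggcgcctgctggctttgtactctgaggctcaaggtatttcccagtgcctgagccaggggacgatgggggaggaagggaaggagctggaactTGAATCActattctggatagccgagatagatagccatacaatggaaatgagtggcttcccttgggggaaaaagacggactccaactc
RefSeq gives Igfbp2 a second start, and its window, chr1:72825137-72825436, held 1 AP-1 site and neither a GC box nor an E-box; the window of the first start is the one shown. That first Igfbp2 window held 3 GC boxes and 1 E-box, and GC boxes were present in 35.7% and E-boxes in 7.15% of all 32851 promoters of this length. Igfbp5 held 1 TEAD site, as did 14.7% of all promoters. Igfbp4 held a TATA box starting 28 bases before the start, as did 13.6% of all promoters. Igf1 held 1 AP-1 site, as did 7.81%. Igfbp3 held none of the searched letters, and no FoxO site (3.65% of all promoters) or CArG box (1.63%) was present in any of the 5 windows shown. GC content was 67.0% for Igfbp2, 56.3% for Igfbp5, 71.7% for Igfbp3, 71.3% for Igfbp4 and 52.3% for Igf1, against a median of 52.7% over all promoters. A match is a description of these letters and does not show that a factor binds there.

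Values below are processed spot signals divided by the 75th percentile of all probes on the same array, so a value of 1 is the signal of a probe at that percentile. Levels were compared only within an array design, since the probe content that sets the percentile differs between designs. A gene entered the test when its probe stood well above background throughout the wound arrays or throughout the skin arrays, and it was called at an adjusted p under 0.05 (limma with a term for the array design, Benjamini-Hochberg adjustment over 16742 genes). Well above background were 71.1%, 65.3% and 64.4% of spots on wound arrays and 70.1%, 65.2% and 72.6% on skin arrays, and no spot was flagged as saturated. Pearson correlations between arrays over genes were 0.970 to 0.989 within a group and 0.901 to 0.923 between groups. Acta2, whose promoter drives the reporter, had values of 102.6, 81.9 and 239.6 in wound cells, against 3.23, 3.69 and 9.52 in skin cells, 26.1-fold higher in wound cells (limma, adjusted p = 5.2e-05). As a check of the labelled cell types, all 10 fibroblast markers were tested. Their summed values were 1134, 1282 and 3597 in wound cells, against 1240, 1218 and 4192 in skin cells. Of the 10, 1 was called higher and 2 lower (30.0% called), against 34.0% of all tested genes. In RNA from bulk populations, fewer cells of a type and less RNA per cell cannot be told apart.

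Of the 10 genes, 9 were tested, and 7 of these were called. Igf1, Igfbp4 and Igf2bp3 rose in wound cells relative to skin cells, while Igf1r, Igfbp2, Igfbp3 and Igfbp5 fell. Igfbp6 and Igfbp7 did not pass the test, and Igf2bp1 was too dim to be tested. Over all genes tested, 34.0% were called, 18.5% higher and 15.6% lower. Igf2bp3 was tested through its wound arrays alone. Of the 8 genes above background on all 6 arrays, 6 were called, 2 higher and 4 lower, when the test was limited to such genes, against 33.5% of all such genes. The median log2 difference of the 9 tested genes was -0.37, against 0.04 over all tested genes, and their median absolute log2 difference was 1.25, against 0.42. For 8 of the 9, wound and skin arrays did not overlap within either design, as was true of 57.0% of all tested genes.

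**Figure D1:**
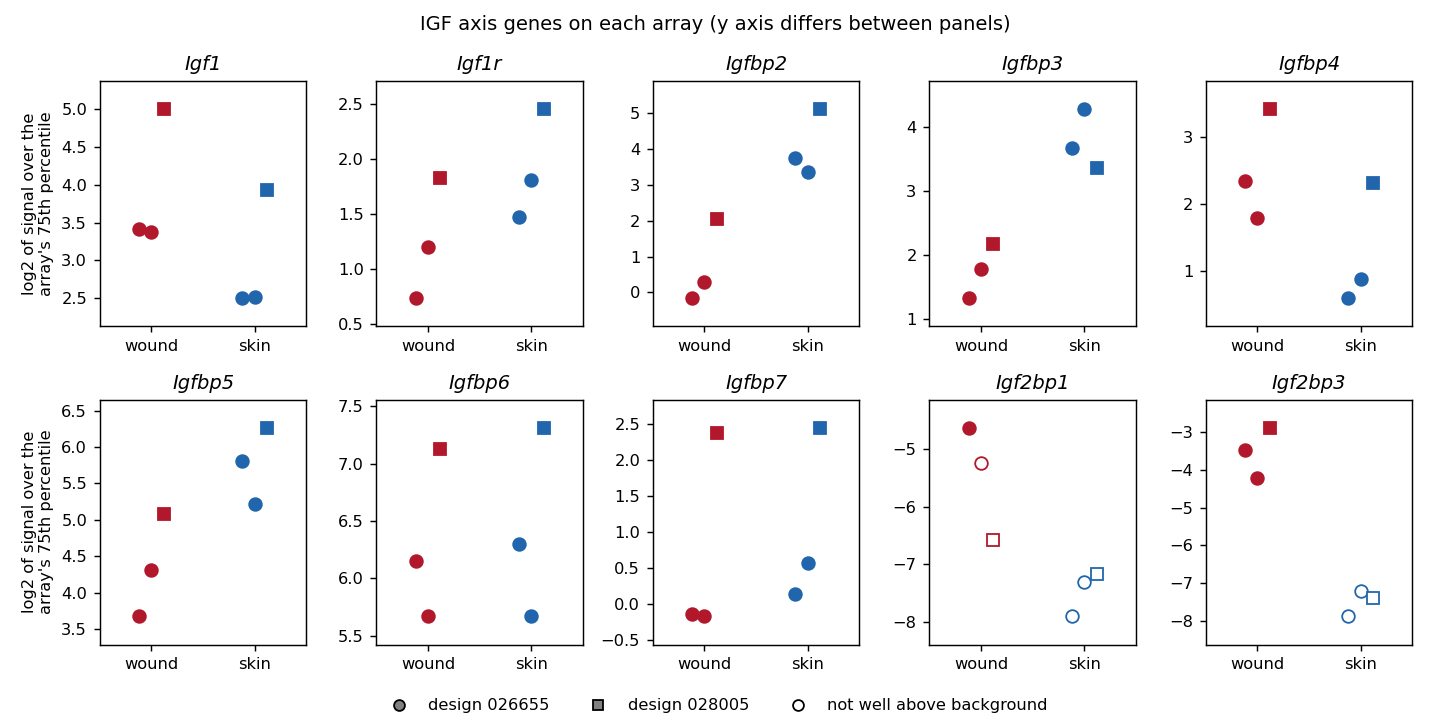
Level of each of the 10 genes on each array, as log2 of the signal over the array's 75th percentile (y axis, scale differs between panels), in wound cells (red, left) and skin cells (blue, right). Circles are arrays of design 026655, squares arrays of design 028005, and open symbols were not well above background. Within a design, wound points lie above skin points for Igf1, Igfbp4 and Igf2bp3, below them for Igf1r, Igfbp2, Igfbp3 and Igfbp5, and among them for Igfbp6.

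Igf1, the ligand, had values of 10.7, 10.4 and 32.0 in wound cells, against 5.67, 5.72 and 15.3 in skin cells. Each wound array was higher than every skin array of its design, and the arrays of a group on design 026655 lay close together. The difference was 0.95 on the log2 scale, or 1.93-fold (SE 0.14, 95% interval 0.61 to 1.29, n = 3 arrays a group, limma adjusted p = 0.00337). Within the 3 pairs of arrays named by the same number, the wound value was higher by log2 0.91, 0.86 and 1.06. A larger absolute difference was found for 22.9% of tested genes. Igf1 had 5 probes, and each was called higher when probes were tested one by one, with differences of 0.61 to 0.95. In the authors' deposited table, wound minus skin was 0.73, 0.73 and 0.76 for Igf1 in the 3 pairs. Macrophages also make Igf1. The summed values of 19 macrophage and other white blood cell markers were 23.7, 33.2 and 105 in wound cells, against 26.2, 23.8 and 120.4 in skin cells. Most of these sums was a single gene, Itgam, and without it they were 4.97, 4.67 and 13.1 in wound cells, against 7.83, 5.67 and 20.8 in skin cells. Of 12 such markers tested, S100a9 was called higher, S100a8 and Csf1r were called lower, and the other 9 were not called. S100a9 entered the test through its wound arrays alone and S100a8 through its skin arrays alone. Of the 7 markers above background on all 6 arrays, 1 was called, and it was lower. Among the 9 not called, the macrophage marker Adgre1 was higher in wound cells by log2 0.44, 1.49 and 0.22 in the 3 pairs. Ptprc, which encodes CD45, differed by -0.15, -0.01 and -0.46, but was above background on only 1 wound array. Lyz2, above background on 2 wound arrays and 1 skin array, was not tested, and Mrc1 was above background on no array. The part of such cells in the rise of Igf1 was not tested.

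Igf1r, the receptor that binds IGF1, had values of 1.67, 2.30 and 3.54 in wound cells, against 2.78, 3.51 and 5.48 in skin cells. The groups did not overlap within a design, but on design 026655 the gap between them was smaller than the spread within either. The difference was -0.66 on the log2 scale, 1.58-fold lower in wound cells (SE 0.19, 95% interval -1.12 to -0.20, limma adjusted p = 0.0392). This call was close to the threshold. It was lost without a filter on dim probes (adjusted p = 0.0892), on design 026655 alone (0.105), and when any array but wound replicate 2 was left out (0.0769 to 0.123). Among the 7 called genes, Igf1r had the highest adjusted p.

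Of the 6 listed binding proteins, Igfbp2 had the largest absolute difference. This protein binds IGF2 and IGF1 and is also found at cell surfaces through an integrin-binding motif. Igfbp2 had values of 0.90, 1.21 and 4.15 in wound cells, against 13.5, 10.4 and 34.7 in skin cells. Every skin array was several times brighter than each wound array of the same design. The difference was -3.36 on the log2 scale, 10.2-fold lower in wound cells (SE 0.21, 95% interval -3.86 to -2.85, limma adjusted p = 0.000141), and 2.79% of tested genes had a larger absolute difference. A second Igfbp2 probe gave -3.32. The call held under every alternative that gave a test.

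Igfbp3, the main carrier of IGF1 in blood, had values of 2.51, 3.42 and 4.52 in wound cells, against 12.8, 19.4 and 10.3 in skin cells. The wound arrays were lower within each design, although the gap was smaller on design 028005. The difference was -2.02 on the log2 scale, 4.04-fold lower in wound cells (SE 0.32, 95% interval -2.80 to -1.24, limma adjusted p = 0.0045). By pair it was -2.35 and -2.51 on design 026655 and -1.19 on design 028005. A second, dimmer Igfbp3 probe gave -1.24 (SE 0.52) and was not called (limma adjusted p = 0.129 over all probes). Both probes of Igfbp3 were lower in wound cells, and whether they differ in size was not tested.

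Igfbp5, a matrix-binding family member that fibroblasts and smooth muscle cells secrete, had values of 12.8, 19.9 and 33.8 in wound cells, against 56.3, 37.1 and 76.9 in skin cells. All wound arrays lay below the skin arrays of their design. The difference was -1.41 on the log2 scale (SE 0.25, 95% interval -2.02 to -0.80, limma adjusted p = 0.00708), and by pair it was -2.14, -0.90 and -1.19. Igfbp5 is the next annotated gene after Igfbp2 on chromosome 1, on the opposite strand, and Igfbp3 lies beside Igfbp1 on chromosome 11. Igfbp1, a binding protein best known from liver that is not among the 10 genes, was named through its accession. It had values of 0.0153, 0.0138 and 0.0118 in wound cells, on no array well above background, against 0.235, 0.159 and 0.336 in skin cells. The limma fit called Igfbp1 lower (adjusted p = 0.000199), but its wound values are background signal. With normexp background correction, which raises dim signals, its log2 difference was -1.52. On the scaled processed signals, Igfbp1 was at least 9.37-fold lower in wound cells. Such a bound compares the brighter population's mean with the faintest signal that still counted as well above background on the arrays of the dimmer one. Igfbp2, Igfbp5 and Igfbp3, which were above background on all 6 arrays, were thus called lower, as were 15.6% of all tested genes, while Igfbp1 entered the test through its skin arrays alone.

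Igfbp4 moved the other way. This protein holds IGF1 from its receptor until the protease PAPP-A cuts it. Igfbp4 had values of 5.05, 3.45 and 10.7 in wound cells, against 1.51, 1.84 and 4.98 in skin cells. Wound arrays were higher than the skin arrays of their design. The difference was 1.25 on the log2 scale, 2.38-fold higher in wound cells (SE 0.20, 95% interval 0.76 to 1.74, limma adjusted p = 0.00473), and by pair it was 1.74, 0.91 and 1.10.

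Igfbp6, which prefers IGF2 over IGF1, had values of 70.9, 50.9 and 140.2 in wound cells, against 78.9, 51.0 and 159.1 in skin cells. The groups overlapped on design 026655. The difference of -0.11 on the log2 scale was smaller than its error (SE 0.23, 95% interval -0.67 to 0.44, limma adjusted p = 0.737), and its sign turned when wound replicate 2 or skin replicate 1 was left out. Igfbp7, a related protein with low affinity for IGFs that is abundant around vessels, had values of 0.909, 0.892 and 5.23 in wound cells, against 1.11, 1.50 and 5.48 in skin cells. Wound arrays were lower within each design by a small margin, with a difference of -0.37 (SE 0.19, 95% interval -0.82 to 0.09, limma adjusted p = 0.186). The intervals of both genes include falls about as large as that of Igf1r.

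Markers of other cell types were compared between the same populations, where 34.0% of all tested genes were called, 18.5% higher and 15.6% lower. Summed keratinocyte markers were 4.44, 6.04 and 10.8 in wound cells, against 23.2, 53.4 and 44.4 in skin cells. Of 11 tested, 10 were called lower, and Dsg3 was above background on no array. Krt1, Krt15, Cdh1, Epcam and Dsp entered the test through their skin arrays alone. Of the 6 keratinocyte markers above background on all 6 arrays, 5 were called lower. Trp63, the tested marker not called, made up most of the sums in wound cells. It had values of 3.41, 5.23 and 7.93 there, against 4.34, 4.89 and 11.8 in skin cells. Summed Schwann cell markers were 10.5, 9.57 and 23.4 in wound cells, against 34.1, 30.9 and 74.8 in skin cells. Most of each of these sums was a single gene, Pmp22, at 8.55, 8.05 and 19.6 in wound cells, against 31.0, 28.0 and 65.5 in skin cells. Of the 8 Schwann cell markers, 6 were called lower, and Cdh19 among them entered the test through its skin arrays alone. Of the 6 Schwann cell markers above background on all 6 arrays, 5 were called lower. Summed mural cell markers, some of which myofibroblasts share, were 99.0, 121.1 and 260.9 in wound cells, against 55.7, 56.1 and 115.2 in skin cells. Of the 12, 8 were called higher, 1 lower (Ndufa4l2) and 3 were not called (Cspg4, Pdgfrb and Mcam). On the design with 2 arrays a group, the sums lay apart for these 3 cell types. The same was true of the endothelial and adipocyte markers given next. The other design holds 1 array a group, so sums cannot overlap there and their separation is no test. Of all tested single genes, 57.0% did not overlap within either design. Endothelial markers summed to 10.99, 10.5 and 26.4 in wound cells, against 7.63, 6.94 and 24.1 in skin cells. Of 11 tested, 4 were called higher, 1 lower and 6 were not called. Emcn, called higher, entered the test through its wound arrays alone. Of the 10 endothelial markers above background on all 6 arrays, 3 were called higher and 1 lower. Adipocyte markers summed to 13.8, 15.2 and 33.1 in wound cells, against 6.44, 4.98 and 13.6 in skin cells, with 1 of 5 tested called higher and Cidec above background on no array. The marker called higher was Fabp4, at 10.2, 11.05 and 24.7 in wound cells, against 1.14, 1.81 and 4.345 in skin cells. Fabp4 made up most of the sums in wound cells, and the other 4 tested were not called. The part of these cells in the fall of Igfbp2, Igfbp3 and Igfbp5 and in the rise of Igf1 and Igfbp4 was not tested.

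**Figure D2:**
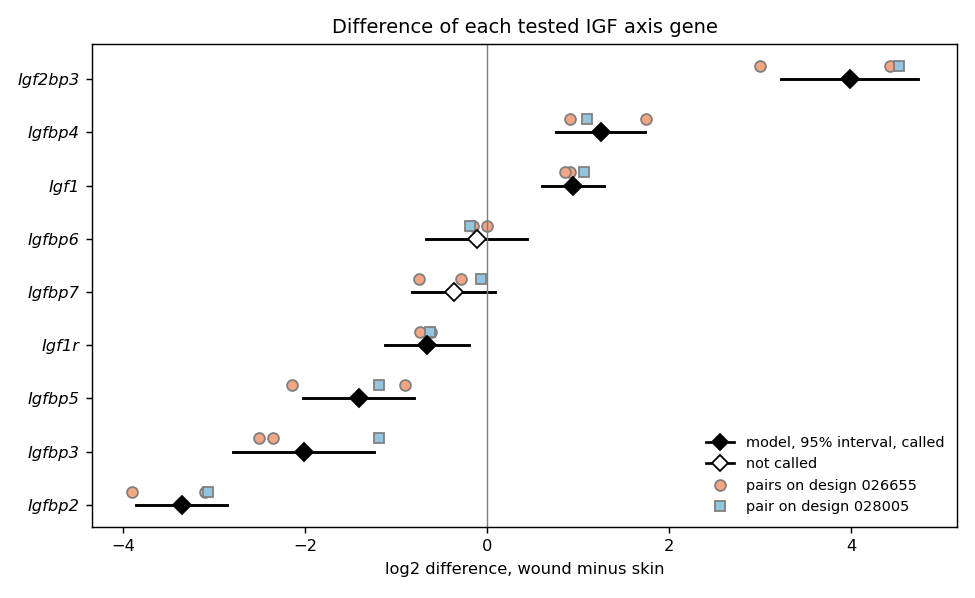
Difference of each of the 9 tested genes on the log2 scale, wound minus skin (x axis), ordered from the highest at the top. Diamonds and lines are the limma difference and its 95% interval, filled where called; circles are the 2 pairs of design 026655 and squares the pair of design 028005. Igf2bp3, Igfbp4 and Igf1 lie to the right of 0 and Igf1r, Igfbp5, Igfbp3 and Igfbp2 to the left; the plotted Igf2bp3 value rests on skin spots below background, and its bound is 4.23-fold.

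**Figure D3:**
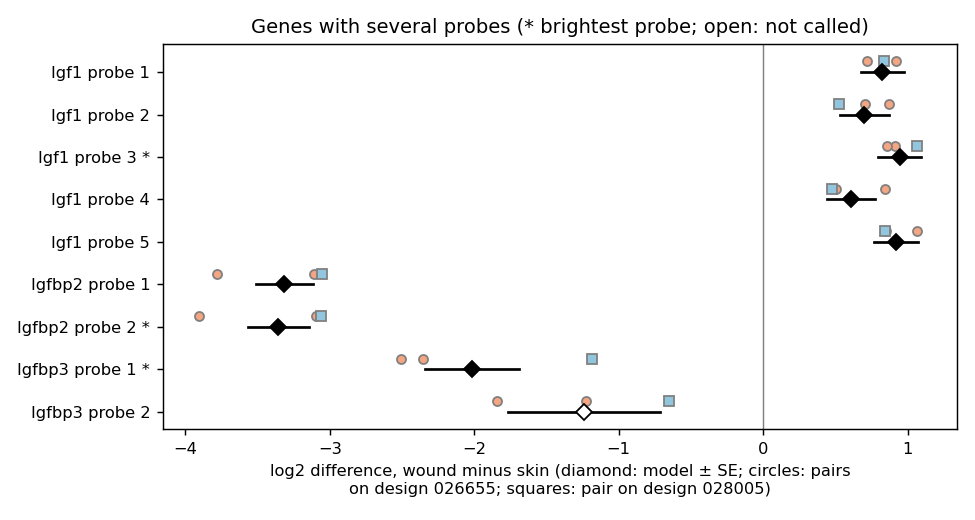
Difference of each probe of the genes with several probes on the log2 scale, wound minus skin (x axis). Diamonds and lines are the limma difference ± SE, circles the pairs of design 026655 and squares the pair of design 028005; an open diamond was not called and an asterisk marks the brightest probe. The 5 Igf1 probes lie between 0.61 and 0.95 and both Igfbp2 probes near -3.3, while the Igfbp3 probes lie at -2.02 and -1.24.

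The RNA-binding proteins were dim on these arrays. Igf2bp3, which stabilises growth-related messages in fetal and tumour tissue, had values of 0.0910, 0.0538 and 0.136 in wound cells, against 0.00423, 0.00672 and 0.00591 in skin cells. It was well above background on all 3 wound arrays and on none of the skin arrays. On the scaled processed signals, Igf2bp3 was therefore at least 4.23-fold higher in wound cells, and this bound applies to that scale only. The limma fit called Igf2bp3 higher (adjusted p = 0.000305), but its skin values are background signal. With normexp background correction, which raises dim signals, the fitted log2 difference of Igf2bp3 was 0.79 in place of 3.98 and was still called. Igf2bp1 had values of 0.0402, 0.0264 and 0.0105 in wound cells, against 0.00418, 0.00632 and 0.00691 in skin cells. It was well above background on 1 wound array and no skin array and was not tested; without the filter on dim probes its difference was 1.98 on the log2 scale (limma adjusted p = 0.0505). Igf2bp2, the third of this family and not among the 10 genes, was named after its value was seen. It had values of 2.07, 2.68 and 2.75 in wound cells, against 0.594, 0.654 and 1.13 in skin cells, 3.27-fold higher in wound cells (limma adjusted p = 0.00138), and its second probe was called higher too.

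Of the wider list of 19 ligands, receptors and binding proteins, which holds the 10 genes, 17 were tested, 6 were called higher, 8 lower and 3 were not called (82.35% called, against 34.0% of all tested genes), with a median log2 difference of -0.37, against 0.04 over all tested genes. Igf2bp3, Igfbp1, Insrr and Igfals entered the test through 1 population alone. Of the 13 listed genes above background on all 6 arrays, 5 were called higher and 5 lower. Igf2, the fetal ligand, had values of 0.404, 0.223 and 1.16 in wound cells, against 0.0497, 0.0537 and 0.163 in skin cells, 6.22-fold higher in wound cells (limma adjusted p = 0.000567). Each wound array exceeded every skin array of its design. Igf2r, the scavenger receptor that removes IGF2, was named after its value was seen. It had values of 12.8, 15.4 and 20.3 in wound cells, against 3.16, 3.23 and 5.13 in skin cells, 4.24-fold higher in wound cells (limma adjusted p = 0.000252). Insr, the insulin receptor, also named after its value was seen, had a log2 difference of -0.95 (limma adjusted p = 0.0275), and its other 2 probes were not called. The Insr call was lost with the mean of its probes (0.0808), the authors' deposited table (0.0801), no filter on dim probes (0.0677), design 026655 alone (0.0786) and any array but wound replicate 2 left out (0.0566 to 0.0906). Insrr, an alkali-sensing relative of the insulin receptor, and Igfals, which stabilises the IGFBP3 complex in blood, were called lower (limma adjusted p = 0.0009 and 0.0045), each with only 1 of 3 wound arrays above background, so the size of their fall is not measured. Insrr had values of 0.0139, 0.0256 and 0.0772 in wound cells, against 0.225, 0.114 and 0.795 in skin cells. Igfals had values of 0.0205, 0.00827 and 0.00961 in wound cells, against 0.0726, 0.05004 and 0.0964 in skin cells. With normexp correction the fitted log2 differences were 1.72 for Igf2, in place of 2.64, -1.52 for Igfbp1, -1.39 for Insrr and -0.57 for Igfals, all called.

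Proteases that cut IGF-binding proteins, and the inhibitors of those proteases, moved both ways. Of 17 listed genes 14 were tested, 4 were called higher, 5 lower and 5 were not called (median log2 -0.07), against 18.5% higher and 15.6% lower over all tested genes. Klk1, called lower, entered the test through its skin arrays alone. Of the 13 listed genes above background on all 6 arrays, 4 were called higher and 4 lower. Pappa2, a metalloprotease that cuts IGFBP5 and IGFBP3, had values of 0.176, 0.144 and 0.579 in wound cells, against 9.96, 13.4 and 12.3 in skin cells, 48.3-fold lower in wound cells (limma adjusted p = 0.000195). No wound array came near a skin array. The log2 difference of Pappa2 was -5.59, but -4.32 from the mean of its probes, -4.85 from the authors' deposited table, -6.18 on design 026655 alone (which is also the value without wound replicate 3 or skin replicate 3) and -4.41 on design 028005 alone. Stc2, an inhibitor of these metalloproteases, was 17.5-fold lower in wound cells (log2 -4.13, limma adjusted p = 0.000387), with -3.52 under normexp correction and -3.05 on design 028005 alone. Pappa, which encodes PAPP-A, the protease of IGFBP4, was named after its value was seen and had values of 0.421, 0.510 and 1.01 in wound cells, against 1.43, 1.74 and 2.53 in skin cells (log2 -1.62, limma adjusted p = 0.00117). The plasminogen activators Plau and Plat, serine proteases whose product plasmin can cut IGF-binding proteins, were 10.4-fold and 9.40-fold higher in wound cells (limma adjusted p = 0.000304 and 0.000118). Adam12, a further metalloprotease that cuts IGFBP3 and IGFBP5 and was named after its value was seen, was 5.51-fold higher in wound cells (limma adjusted p = 0.000123). The log2 difference of Adam12 was 2.46 from its brightest probe and 4.02 from the mean of its probes.

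Signalling below the receptor changed about as often as other genes. Of 36 listed genes 34 were tested, and 11 of these (32.35%) were called, 8 higher and 3 lower (median log2 0.12), against 34.0% of all tested genes. Foxo1, the transcription factor that Akt keeps out of the nucleus, had values of 1.98, 2.01 and 3.92 in wound cells, against 8.77, 9.32 and 12.2 in skin cells, 3.99-fold lower in wound cells (limma adjusted p = 0.000417). Pik3r1, the main regulatory subunit of phosphoinositide 3-kinase, was 3.56-fold lower in wound cells (limma adjusted p = 0.000931). Pik3cb, a catalytic subunit, was dim, and its log2 difference was -2.48, or -1.23 with normexp correction (limma adjusted p = 0.00142 and 0.000283). Grb10, an imprinted adaptor that damps insulin and IGF1 receptor signalling, was 3.75-fold higher in wound cells (limma adjusted p = 0.00524). Its log2 difference was 1.91 over both designs and 1.10 on design 028005 alone.

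In the growth hormone axis, which drives Igf1 in liver, all 9 listed genes were tested, 1 was called higher, 6 lower and 2 were not called (median log2 -1.04), against 18.5% higher and 15.6% lower over all tested genes. Igfals, among the 6, entered the test through its skin arrays alone. Ghr, the growth hormone receptor, had values of 2.17, 1.79 and 4.38 in wound cells, against 5.10, 4.01 and 11.6 in skin cells, 2.40-fold lower in wound cells (limma adjusted p = 0.00251). Stat5b, the transcription factor through which growth hormone acts, was 3.01-fold lower (0.000758) and Socs3, a feedback inhibitor of cytokine receptors, 3.87-fold lower in wound cells (0.000403). The gene called higher was Cish, another feedback inhibitor. The summed keratinocyte and Schwann cell markers were lower in the same wound cells, and their part in the lower values of these genes was not tested.

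Genes that FoxO factors switch on and IGF signalling switches off were listed next. Of 17 listed genes 16 were tested, 1 was called higher, 10 lower and 5 were not called (median log2 -0.86), against 18.5% higher and 15.6% lower over all tested genes, and the list holds Igfbp1 and Insr. Of the 15 above background on all 6 arrays, 1 was called higher and 9 lower. Txnip, a brake on glucose uptake, had values of 1.85, 1.89 and 4.89 in wound cells, against 16.4, 12.9 and 19.4 in skin cells, 6.21-fold lower in wound cells (limma adjusted p = 0.000519; log2 -2.63, or -1.99 on design 028005 alone). Klf15, a metabolic transcription factor, was lower by log2 -2.36, or by -1.21 with normexp correction, and Sesn1, a sestrin that restrains mTOR signalling, was 2.98-fold lower in wound cells (limma adjusted p = 0.000603 for Klf15 and 0.00163 for Sesn1). Fbxo32, a muscle ubiquitin ligase, was the gene called higher. The part of the lower keratinocyte and Schwann cell markers was not tested for these genes either.

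A list of the fetal program joined known targets of the let-7 microRNA, the Igf2bp genes among them, with the imprinted genes H19, Dlk1 and Igf2, which are in the list for their fetal expression. Of its 15 tested genes, 7 were called higher, 2 lower and 6 were not called (median log2 0.14), against 18.5% higher and 15.6% lower over all tested genes. Of the 12 above background on all 6 arrays, 5 were called higher and 1 lower. H19, an imprinted long noncoding RNA that lies near Igf2 and can bind let-7, had values of 239.4, 212.5 and 430.6 in wound cells, against 1.21, 0.440 and 4.31 in skin cells (log2 7.73, limma adjusted p = 0.000143). The log2 difference of H19 was 4.82 from the mean of its probes, 6.64 on design 028005 alone and 4.77 in the authors' deposited table. Dlk1, an imprinted transmembrane protein of fetal mesenchyme, had values of 57.8, 50.9 and 70.3 in wound cells, against 0.352, 0.154 and 0.588 in skin cells (log2 7.54, limma adjusted p = 8.4e-05; 6.90 on design 028005 alone). Trim71, a stem-cell protein, was called higher (log2 1.96, adjusted p = 0.00467), but not from the mean of its probes (0.0849) or from the authors' deposited table (0.131). With normexp correction the log2 difference of Trim71 was 0.61 and was called. Hmga2, a chromatin protein named after its value was seen, was 3.60-fold higher in wound cells (limma adjusted p = 0.00422; log2 1.85, or 1.13 on design 028005 alone), while Lin28b was above background on no array.

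Transcripts known to be bound by Igf2bp proteins numbered 14 on the arrays, all tested, with 6 called higher, 1 lower and 7 not called (median log2 0.43), against 18.5% higher and 15.6% lower over all tested genes. Ptgs2, the inducible prostaglandin synthase, had values of 15.6, 19.3 and 32.8 in wound cells, against 2.31, 2.60 and 5.66 in skin cells, 6.62-fold higher in wound cells (limma adjusted p = 0.00014). Cd44, the hyaluronan receptor, was 4.61-fold higher in wound cells (limma adjusted p = 0.000551). The log2 difference of Cd44 was 1.601 from the mean of its probes and 1.54 from the authors' deposited table. H19 and Igf2 are also on this list, and Myc, Actb and Col1a1 were among the 7 that were not called.

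**Figure D4:**
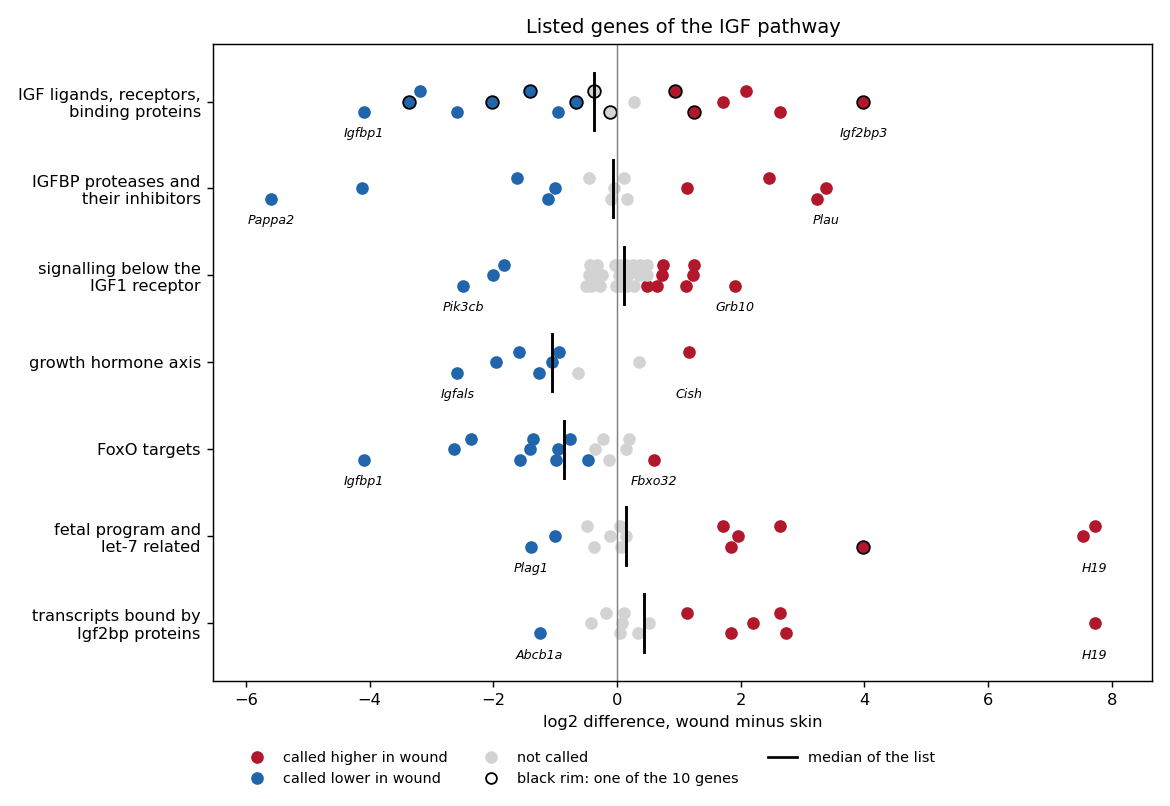
Log2 difference, wound minus skin (x axis), of each tested gene of the 7 pathway lists (rows). Red points were called higher in wound cells, blue points lower and grey points were not called; black rims mark the 10 genes and vertical bars the list medians; points of genes below background in 1 population, such as Igfbp1 and Igf2bp3, are fitted values and not measured sizes. The growth hormone and FoxO lists have medians of -1.04 and -0.86, and the signalling list has 23 of its 34 genes in grey.

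Genes with the most similar pattern were taken by the smallest root mean square difference of the 6 log2 values, each centred on the mean of its array design. For Igf1 they were Cacnb3, a calcium channel subunit (0.0134), Riok3, an atypical kinase (0.0285), and Nab1, a corepressor of EGR factors (0.0287). For Igfbp2, the gene with the largest decrease among the 10, they were Irx2, a homeobox factor (0.0642), Dpyd, an enzyme of pyrimidine breakdown (0.0978), and Scg3, a granin (0.0995). For Igf2bp3 the same measure named Il2rg, Kcnk3 and Actg2, but its 3 skin values are background signal, so this is no measured likeness. With 6 arrays in 2 groups, such likeness says mainly that the group differences are of a like size.

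The array design term bears on several of these calls, since the scaled levels of many of these genes differed between designs. Without it, Igf1 (adjusted p = 0.562), Igf1r (0.853), Igfbp4 (0.272) and Igfbp5 (0.168) were not called, nor were Igf2bp2 (0.0566), Insr (0.556), Pappa (0.0804), Stat5b (0.0884), Ghr (0.26), Sesn1 (0.0945), Cacnb3 (0.543), Riok3 (0.577) and Nab1 (0.533).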

How the data were processed

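RNA of wound and skin cells was measured on 6 one-colour Agilent arrays. Per the file headers, the authors read spot intensities out with Feature Extraction 10.7.3.1 on designs annotated to mm9. The deposited intensity values are linear, background-subtracted by the software and not scaled between arrays. The authors' deposited gene table holds log2 values for 1 row a gene, which GeneSpring 14.5 created from the 2 designs, as the design text says. Within each design its genes are centred, and its base was found by setting it against the scanner values (slopes of 1, 1 and 0.976 for the differences of the 3 pairs). Its column medians are -0.28, -0.27 and -0.23 for wound and -0.21, -0.25 and -0.25 for skin. The design text names a human array, whereas every sample is labelled mouse and the probes match mouse genes.

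From the intensities, control spots and spots with outlier flags were left out, and the linear processed signals of a probe's spots were averaged. Log2 of that mean was then taken minus log2 of each array's 75th percentile over probes. The brightest probe of a gene on each design was used (the same probe on both for 96.98% of genes). Probes took symbols from the authors' table, or else from RefSeq accessions. Array background signal, not depth, limits dim genes, and 3 arrays a group limit precision. limma 3.58.1 in R 4.3.3 fitted group and array design, which here is also the slide. In simulated data of 16742 genes for this comparison, 48 of 50 genes changed by log2 1, 48 of 50 by log2 -1, 50 of 50 by log2 2 and 50 of 50 by log2 -2 were called, with 10 false calls. The simulated noise had the same spread for every gene, taken from the median gene. Real genes differ in spread, so the simulation does not show how many genes of wider spread would be called. Shared replicate numbers exist for 2 pairs only; deviations of same-numbered wound and skin arrays correlated at 0.152 over genes, and the labels do not tie the numbers to animals, so they were not taken as pairs. Normexp (offset 50) used median foreground signals in place of the planned means. Alternatives covered normalization, probe choice, filters, thresholds, designs and each array left out. The genes and lists were chosen with earlier results of these data known. Named are all 10 genes, the 4 called genes of largest absolute difference in each list, and the 3 genes most like Igf1, Igfbp2 and Igf2bp3; other names were chosen after their values were seen.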

Additional observations from a re-analysis of the deposited data

How the results depend on the processing

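Igf1, Igfbp4 and Igf2bp3 were higher and Igfbp2, Igfbp3 and Igfbp5 lower in wound cells under all alternatives that gave a value, and of these the calls of Igf1, Igfbp4 and Igfbp5 were lost without the array design term, that of Igf1 where at least a 2-fold difference was asked, and that of Igfbp3 on its second probe. Igf1r stayed lower in sign. Without the array design term, 1767 genes were called in place of 5699, and 1 of the 10 genes was called higher and 2 lower. At an adjusted p under 0.01, 3198 genes were called, with 3 of the 10 genes higher and 3 lower, and at an adjusted p under 0.05 with at least a 2-fold difference 3388, with 2 higher and 3 lower. Leaving out each array in turn, 3761 (without skin replicate 1) to 5027 genes were called, with 3 of the 10 genes called higher each time and 3 to 4 lower. The log2 difference of Igfbp6, -0.11 with all arrays, ranged from -0.3025 without skin replicate 2 to 0.05738 without skin replicate 1 (adjusted p = 0.897), and was 0.01449 without wound replicate 2 (0.97). With the replicate number as a block, 5607 genes were called, and the same 7 of the 10 genes. Design 028005 alone gives values with no test. Array background limits Igf2bp1, Igf2bp3, Igfbp1 and Igfals, whose skin or wound spots have only bounds or are partly below background.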
